A study of Mus musculus with 39 samples.

Results

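Gene expression was compared between spleens of PCB-153-exposed and vehicle-exposed mice labelled as knockouts of SXR (also called PXR), the steroid and xenobiotic receptor encoded by Nr1i2. The comparison used 5 libraries per group, 10 of the 19 spleen libraries and of the 39 libraries of the series. Of the 54735 genes in the deposited spleen table, 19058 had a mean normalised read count of at least 10 over the 19 spleen libraries, and these were tested. All mice were C57BL/6 and 4 weeks old. Exposure was perinatal, with a daily PCB-153 dose of about 54 µg per kg in the exposed groups and DMSO as the vehicle. Spleens labelled wild type, of the same age and strain, 4 after vehicle and 5 after the same PCB-153 dose, were used for reference and for the estimate of the spread. Libraries are numbered here by their replicate number in the labels. The labels name neither litters nor animals, and nothing there says which exons of the receptor gene were deleted. P-values therefore measure the spread between these libraries, which may be technical in part.

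PCB-153 is a polychlorinated biphenyl that persists in fat and reaches offspring through the placenta and milk. SXR is a nuclear receptor best known in liver and intestine, where foreign chemicals and steroids that bind it switch on genes of drug metabolism and transport. The spleen has a white pulp of B and T cell zones around arterioles and a red pulp in which macrophages remove aged red cells. In young mice the red pulp also still makes red cells and granulocytes, so a spleen library holds RNA of lymphocytes, macrophages, stroma and dividing erythroid and myeloid precursors.

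The 10 libraries compared held 17.58 to 24.11 M reads (19 spleen libraries, 16.1 to 29.52 M). Nr1i2 (chromosome 16, 38248323 to 38294824, GRCm38) was counted at 42.9, 54.8, 61.7, 62.8 and 55.4 in the vehicle libraries and 43.0, 53.6, 57.0, 50.9 and 55.9 in the PCB-153 libraries. It did not exceed 2.27 in any library labelled wild type, which is the opposite of what the labels say, so both kinds of spleen are named by their labels throughout and every statement rests on those. Exposure moved Nr1i2 by -0.09 ± 0.37 on the log2 scale (SE, limma adjusted p = 0.909).

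Genes of neighbouring organs set several libraries apart. The 30 pancreatic genes searched (digestive enzymes such as trypsins and amylases) summed to 21536, 722, 890.3, 173957 and 1477 normalised reads in PCB-153 libraries 1 to 5, against 629 to 765 in the vehicle libraries. Libraries 1, 4 and, far less, 5 stood above all others, and 2, 2 and 3 of the 30 genes were at 0 there against 10 to 17 in the other 7 libraries of the comparison. In vehicle library 4 the 20 hepatocyte genes summed to 16795, with none at 0, against 307 to 629 in the other 9 libraries. The 14 tested adipocyte genes had a mean log2 level of 4.99 in PCB-153 library 5 against 7.72 to 8.48 in the other 4. The main list results are therefore also given without PCB-153 libraries 1 and 4, a choice made after the data were examined. The part of these RNAs in each result was not tested beyond that.

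**Figure D1:**
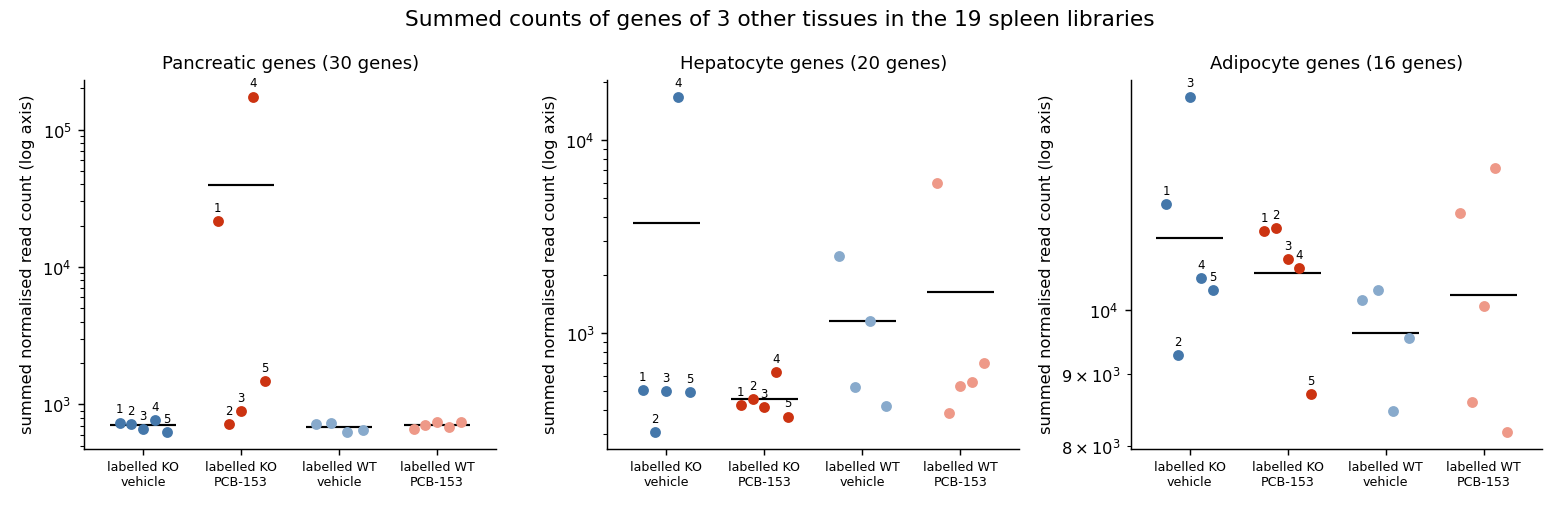
Summed normalised read count (log axis) of pancreatic, hepatocyte and adipocyte genes in each of the 19 spleen libraries, by group. Points are libraries, numbers beside points are replicate numbers in the labelled knockout groups and bars are group means. PCB-153 libraries 1 and 4 stand above all others for pancreatic genes, and vehicle library 4 for hepatocyte genes.

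Exposure was followed by many small differences. At an adjusted p under 0.05 (limma with Benjamini-Hochberg adjustment over all 19058 genes), 530 genes were called higher and 480 lower, 5.30% of the genes tested (2.78% higher and 2.52% lower). The median size of a called difference was 0.47 on the log2 scale, and 31 genes differed more than 2-fold, 14 higher and 17 lower. By limma, 4586 genes had an unadjusted p under 0.05. Many lay near the threshold, as the median adjusted p of called genes was 0.0325 and 1212 more genes lay at 0.05 to 0.1. In the authors' deposited table, 1261 genes had a higher and 766 a lower value at an adjusted p under 0.05 (12.4% of the 16385 genes with an adjusted p there), and 979 of the 1010 called here were among them. The groups of 5 did not overlap for 454 of the 1010, while 4.62% of all genes tested did not overlap. Quantile normalisation gave 362 genes higher and 498 lower (4.51% of genes) in place of 530 and 480.

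The count of calls depended strongly on which libraries were included. Without PCB-153 library 1, 3 or 4 the count fell to 42, 16 and 10, and without PCB-153 library 2 or 5 it rose to 3704 and 2224. Without vehicle library 2, 3, 4 or 5 it was 403, 42, 118 and 20. With each of the 10 libraries left out in turn, all 1010 genes kept their direction. They were called on these same libraries, so a kept direction was nearly fixed in advance and is no separate support. Only 10 of them remained called in each of those 10 fits. All 10 were lower, namely Klhl14, Slfn8, Mx1, Fam129c, Ifi209, Trim30b and the predicted genes Gm30211, Gm32220, 4930426D05Rik and 5830408C22Rik. Without PCB-153 libraries 1 and 4 together, all 1010 again kept their direction, with a median size of 0.35, and 21 of them were still called, while 0.121% of all genes passed in that fit. Lists of genes followed this. None of the 4 to 24 members called in the B cell, dendritic cell, erythroid, haem synthesis, proliferation, neutrophil and NRF2 lists described below was called without PCB-153 library 3 or 4 or without vehicle library 3 or 5, and without PCB-153 library 1 calls were left in the neutrophil list only, where 7 passed.

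**Figure D2:**
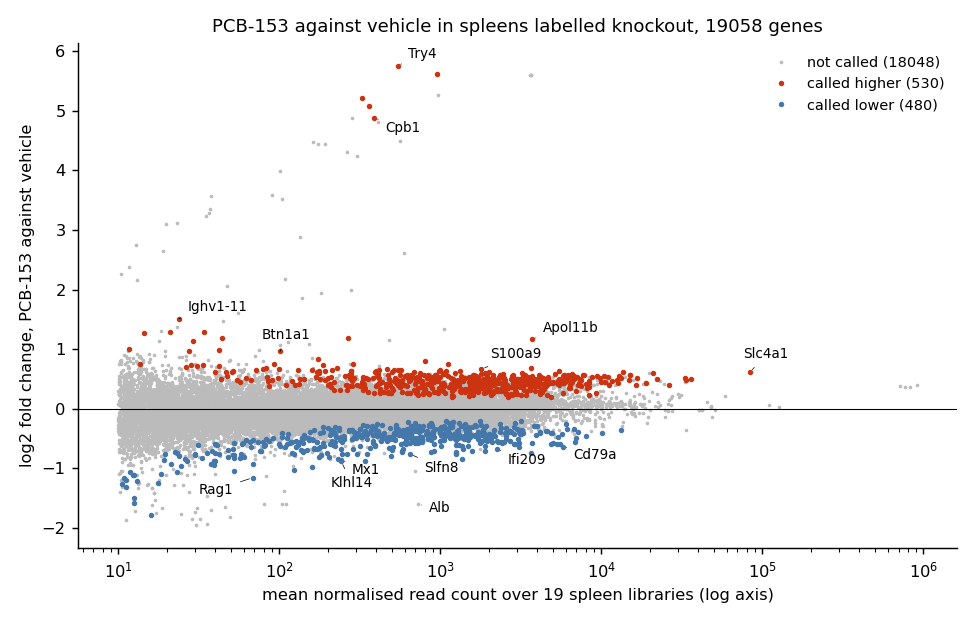
Log2 fold change of PCB-153 against vehicle in spleens labelled knockout (vertical axis) against the mean normalised read count over 19 spleen libraries (log axis) for 19058 genes. Red and blue points are the 530 genes called higher and the 480 called lower, mostly within 1 log2 unit of 0, and the points above a log2 fold change of 2 include the pancreatic genes Try4 and Cpb1.

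B cell genes fell. Of 19 tested members of a list of mature B cell genes, 14 fell and none rose, all 19 had a lower mean, and the median log2 fold change was -0.54 beside -0.01 over all genes tested, of which 2.52% were called lower. The mean log2 level of the list was 11.46, 11.48, 11.55, 11.40 and 11.77 in the vehicle libraries and 10.63, 11.41, 10.96, 10.69 and 11.38 in the PCB-153 libraries. Without PCB-153 libraries 1 and 4 the median was -0.31, all 19 genes still had a lower mean and none was called. PCB-153 libraries 1, 3 and 4 lay well below all 5 vehicle libraries, library 5 just below them and library 2 at their lower edge. A library made from whole tissue does not tell fewer cells of a type from less RNA per cell, here and in all that follows.

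The antigen receptor of B cells signals through the pair of chains that Cd79a and Cd79b encode. Cd79a (chromosome 7, 24897381 to 24902197) was counted at 6175, 6146, 6374, 5975 and 7833 in the vehicle libraries and 3151, 5432, 4249, 3167 and 5374 in the PCB-153 libraries. The groups did not overlap (log2 fold change -0.64 ± 0.13 (SE), adjusted p = 0.0212). Cd79b fell from 5937 ± 750.3 to 4003 ± 1004 (SD, n = 5 each), again without overlap (-0.60, adjusted p = 0.0247). Ms4a1, which encodes the surface protein CD20, stood at 5959.6, 5897, 6714, 5709.5 and 7324 in the vehicle libraries and 3338, 5107, 4112, 3482 and 5094 in the PCB-153 libraries, so that every exposed library was below every vehicle library (-0.60, adjusted p = 0.0212). Fcrla, which encodes an Fc receptor-like protein kept inside B cells, also fell (-0.62, adjusted p = 0.0205), while its groups overlapped. Fcer2a, which encodes the low-affinity IgE receptor CD23 of follicular B cells, fell by 0.58 (adjusted p = 0.026), and Tnfrsf13c, which encodes the receptor for the B cell survival factor BAFF and was looked up after the list's values were seen, by 0.61 (adjusted p = 0.0309). Cr2, the complement receptor gene that marginal zone B cells express strongly, was among the 5 that did not pass. Of 10 marginal zone genes and 18 plasma cell genes none was called, with medians of -0.14 and -0.09.

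Of the list, the largest fall was in Vpreb3, which encodes a chaperone of immunoglobulin light chains in B cell precursors and immature B cells. It was counted at 242, 209, 295, 257 and 359 in the vehicle libraries and 78.5, 223, 164, 127 and 199 in the PCB-153 libraries. Exposed library 2 reached into the vehicle range and the other 4 lay below it (log2 fold change -0.84 ± 0.20 (SE), adjusted p = 0.0273). Rag1, which encodes the recombinase that joins antigen receptor segments in lymphocyte precursors, had 69.3, 65.8, 91.0, 64.6 and 91.5 in the vehicle libraries and 24.7, 30.4, 17.9, 47.7 and 62.7 in the PCB-153 libraries. All exposed libraries were lower than all vehicle libraries (log2 fold change -1.16 ± 0.27 (SE), adjusted p = 0.0263), the largest fall among called named genes with a mean of at least 50. Its log2 fold change was -1.19, and that of Vpreb3 -0.46, without PCB-153 libraries 1 and 4. The call for Rag1 held in 4 and that for Vpreb3 in 4 of the 10 fits that each left out 1 library.

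The promoter of Vpreb3 holds the octamer that Oct proteins bind in immunoglobulin and other B cell genes. Its 250 bases before the RefSeq start (GRCm38.p6) are shown in lower case, 5′ to 3′ along the gene, with the octamer in capitals, here as its reverse complement.
Vpreb3, chr10:75948050-75948299, + strand: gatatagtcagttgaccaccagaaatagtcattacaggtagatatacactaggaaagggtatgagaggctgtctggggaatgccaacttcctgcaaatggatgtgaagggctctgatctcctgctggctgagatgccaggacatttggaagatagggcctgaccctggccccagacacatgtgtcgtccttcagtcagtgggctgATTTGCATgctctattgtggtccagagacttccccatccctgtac
The search was for ATGCAAAT on both strands. It was present before 2 of the 14 B cell list genes with a promoter in the table, Vpreb3 and Blnk, and before 1.81% of all 27025 genes. A match describes the letters only.

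Several of the largest falls outside the list were in genes expressed by B cells. Fam129c, also known as Niban3, was counted at 1635, 1475, 1626, 1413 and 1885 in the vehicle libraries and 722, 1266, 834, 682 and 1086 in the PCB-153 libraries. No exposed library reached the lowest vehicle library (log2 fold change -0.84 ± 0.13 (SE), adjusted p = 0.00784). Klhl14 (chromosome 18), which encodes a BTB-Kelch protein of B cells, stood at 239.8, 261, 299, 268 and 347 in the vehicle libraries and 142, 158, 149.7, 139 and 172 in the PCB-153 libraries, and its exposed libraries were close to each other and below all vehicle libraries (log2 fold change -0.88 ± 0.12 (SE), adjusted p = 0.00224). Edaradd, an adaptor of the ectodysplasin receptor, fell by 0.77 (adjusted p = 0.0259) without overlap. Among 9 germinal centre genes 1 fell and 1 rose, beside 2.52% and 2.78% of all genes, and 4 had a higher mean. The rise was in Lmo2, a transcription cofactor gene that erythroid precursors also express (0.37, adjusted p = 0.0459), and the fall in the germinal centre regulator Bcl6, which went from 694 ± 38.3 to 512 ± 89.1 (SD, n = 5 each) without overlap (-0.46, adjusted p = 0.0259). Klhl14 overlaps 4930426D05Rik on the other strand, also called lower, and, with no strand setting stated, reads of the pair cannot be told apart. Klhl14 and Fam129c were called in each of the 10 fits that left out a library, and their log2 fold changes without PCB-153 libraries 1 and 4 were -0.81 and -0.61.

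T cell genes leaned the same way without passing. Of 26 tested, none was called and 25 had a lower mean, with a median of -0.24 that became -0.01 without PCB-153 libraries 1 and 4. Cd3e, part of the T cell receptor complex, was counted at 556, 547, 539, 570.3 and 732 in the vehicle libraries and 387, 633, 536, 356 and 558 in the PCB-153 libraries (-0.28, adjusted p = 0.202). Exposed libraries 1 and 4 lay far below the vehicle range and library 3 just below it. Among 23 dendritic cell genes, 4 fell, beside 2.52% of all genes called lower. These were Siglech, Tcf4 and Ly6d, all expressed by plasmacytoid dendritic cells, and Cd209a of conventional and monocyte-derived cells. The median was -0.28, and -0.12 with no call without PCB-153 libraries 1 and 4. Siglech was at 582, 613, 441, 624 and 392 in the vehicle libraries and 362, 455, 198, 293 and 285 in the PCB-153 libraries, with overlap through library 2 (-0.76, adjusted p = 0.0272). Ly6d is also a B cell gene and fell by 0.56 (adjusted p = 0.026). Cd209b, which encodes the C-type lectin SIGN-R1 of marginal zone macrophages, fell from 272 ± 55.7 to 159.7 ± 55.2 (SD, n = 5 each) (-0.81, adjusted p = 0.0309).

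Among 15 class II antigen presentation genes, all had a lower mean (median -0.30) and 2 fell, beside 2.52% of all genes called lower. The 2 were H2-Ob, which encodes a B cell chain that restrains peptide loading (-0.57, adjusted p = 0.0203), and the co-stimulator Cd86 (-0.30, adjusted p = 0.0424). Cd74, the invariant chain and the most abundant of the list, differed by -0.37 (adjusted p = 0.127). The median of the list was -0.08 without PCB-153 libraries 1 and 4, where none was called.

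Many erythroid genes rose. Of 45 tested genes of red cell precursors, 24 rose and none fell, beside 2.78% of all genes called higher. All 45 had a higher mean, and the median was 0.51. The median was 0.41 and none was called without PCB-153 libraries 1 and 4, and it ranged from 0.45 to 0.60 with each of the 10 libraries left out. Under quantile normalisation the median was 0.33 with 10 genes called. The mean log2 level of the list was 13.60, 13.47, 13.19, 13.13 and 13.12 in the vehicle libraries and 13.95, 13.63, 13.83, 13.89 and 13.64 in the PCB-153 libraries. Every exposed library was above every vehicle library, narrowly so for libraries 2 and 5 against vehicle library 1.

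Several of the genes encode membrane and skeleton proteins of the red cell. Slc4a1, which encodes the anion exchanger band 3, was counted at 94710.1, 80312, 59342, 59518 and 61173 in the vehicle libraries and 127067, 101170.0, 107302, 105707 and 93034 in the PCB-153 libraries. Only exposed library 5 fell within the vehicle range, below vehicle library 1 (log2 fold change 0.61 ± 0.15 (SE), adjusted p = 0.0302). Epb42, which encodes the band 3 partner protein 4.2, rose from 6569.6 ± 1465 to 9557 ± 980.3 (SD, n = 5 each) and did not overlap (0.56, adjusted p = 0.0263). The blood group gene Kel rose by 0.54 (adjusted p = 0.0295), with overlap. Tspo2, which encodes an erythroid mitochondrial and membrane cholesterol-binding protein, rose by 0.57 (adjusted p = 0.0262) without overlap.

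Of the erythroid transcription factors, Nfe2, which drives late globin and platelet genes, was at 3343, 3018, 2567, 2387 and 2564 in the vehicle libraries and 4578, 3741, 4063, 4485 and 3716 in the PCB-153 libraries. The groups did not overlap (log2 fold change 0.57 ± 0.12 (SE), adjusted p = 0.0259). Klf1, the factor that activates adult beta globin, rose by 0.56 (adjusted p = 0.0448) with exposed library 2 inside the vehicle range. The globin genes themselves did not pass. Hbb-bs differed by 0.39 (adjusted p = 0.221) and Hba-a1 by 0.37 (adjusted p = 0.251). They share 53.2% and 72.3% of their 50-base words with Hbb-bt and Hba-a2, so the split of reads within each pair is uncertain. Epor, the erythropoietin receptor gene, missed the threshold (0.51, adjusted p = 0.0519), and Cish, a suppressor of cytokine signalling that erythropoietin induces, rose from 314 ± 41.9 to 458 ± 78.8 (SD, n = 5 each) (0.53, adjusted p = 0.0288).

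Some genes of haem synthesis rose as well. Of 18 tested, 7 rose and none fell, beside 2.78% of all genes called higher. The median was 0.47, and 0.34 with no call without PCB-153 libraries 1 and 4. Alas2, Fech, Slc25a37 and Tmem14c are also on the erythroid list, so the counts of these lists overlap. Alas2 (chromosome X, 150547375 to 150570638), which encodes the erythroid form of the first enzyme of the pathway, stood at 34935, 36119, 29685, 21906 and 23789 in the vehicle libraries and 36882, 55868, 35694, 36450.5 and 42249 in the PCB-153 libraries. It just missed the threshold (log2 fold change 0.51 ± 0.15 (SE), adjusted p = 0.0504), and its groups overlapped. Alas1, the form used in other tissues, differed by -0.07. Fech, which encodes ferrochelatase, the enzyme that puts iron into the ring, was at 16898, 14443, 12145, 10919 and 10881 in the vehicle libraries and 20579, 19440.0, 18998, 19095 and 16882 in the PCB-153 libraries. Its lowest exposed library, 5, was level with the highest vehicle library, 1 (log2 fold change 0.56 ± 0.12 (SE), adjusted p = 0.0251). Urod, which encodes uroporphyrinogen decarboxylase, rose from 4737 ± 639 to 6975 ± 754 (SD, n = 5 each) without overlap (0.56, adjusted p = 0.0259). Ppox, which encodes the enzyme of the step before ferrochelatase, rose by 0.50, and the mitochondrial iron importer gene Slc25a37 by 0.51.

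Promoters of the erythroid genes were read for the GATA letters AGATAA and TGATAA, which GATA1 can bind. Of the 33 list genes with a RefSeq promoter, 16 (48.5%) held either form on either strand in the 250 bases before a start, against 12.3% of 11757 tested genes with a promoter and 18.8% of all 27025. Either form was also before 11 of 38 genes of the general interferon response list described below (28.9%) and 3 of 13 haem synthesis genes (23.1%). Alas2, with a match, and Tmem14c, without, are in both the erythroid and the haem synthesis counts. The CACCC box letters CCACACCC, also searched, were before 1 of the 33 (3.03%), against 4.21% of tested genes. The promoters of Alas2, with 1 match, and Kel, with a match to each form, are shown as above with the matches in capitals (GRCm38.p6).
Alas2, chrX:150547167-150547416, + strand: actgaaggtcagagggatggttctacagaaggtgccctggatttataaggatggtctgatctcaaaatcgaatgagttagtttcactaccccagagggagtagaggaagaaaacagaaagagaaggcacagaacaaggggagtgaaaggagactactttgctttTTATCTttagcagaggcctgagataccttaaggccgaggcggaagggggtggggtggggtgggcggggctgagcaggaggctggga
Kel, chr6:41704326-41704575, - strand: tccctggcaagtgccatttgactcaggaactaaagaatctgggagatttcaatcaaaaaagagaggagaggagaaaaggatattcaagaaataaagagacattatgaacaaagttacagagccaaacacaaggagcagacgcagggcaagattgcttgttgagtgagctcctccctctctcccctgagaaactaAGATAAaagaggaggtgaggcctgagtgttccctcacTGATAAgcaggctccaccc
In Alas2 the match is on the opposite strand and begins 86 bases before the start. In Kel the matches begin 56 and 19 bases before it.

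Of 25 iron handling genes tested, 3 rose and none fell, beside 2.78% of all genes called higher, and the median was 0.08. These were Blvra, the biliverdin reductase gene (0.40, adjusted p = 0.0272, no overlap), Ncoa4, which delivers ferritin for breakdown (0.37, adjusted p = 0.0399), and Lcn2, a neutrophil protein that traps bacterial iron carriers. The haem oxygenase gene Hmox1, which macrophages use on haem of aged red cells, was at 4919, 5235, 4483, 4481 and 4223 in the vehicle libraries and 4222, 7949, 4918, 3750.0 and 5311 in the PCB-153 libraries (0.12, adjusted p = 0.627), with exposed library 2 above all others. None of 21 red pulp macrophage genes was called (median -0.05).

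Genes of cell division rose in part. Of 41 tested, 13 rose and none fell, beside 2.78% of all genes called higher. All 41 had a higher mean, and the median was 0.46 (0.26 without PCB-153 libraries 1 and 4, where none was called). The mean log2 level of the list was 11.32, 11.16, 11.05, 11.14 and 11.06 in the vehicle libraries and 11.89, 11.00, 11.85, 11.90 and 11.37 in the PCB-153 libraries. Libraries 1, 3 and 4 were far above the vehicle libraries, library 5 just above them and library 2 below all 5. The same 3 libraries were lowest for B cell genes and highest for erythroid and haem synthesis genes. Cdc20, which activates the complex that ends mitosis, was at 1445, 1331, 1335, 1323 and 1312 in the vehicle libraries and 2194, 1497, 2216, 2022 and 1705 in the PCB-153 libraries, with no overlap (log2 fold change 0.50 ± 0.11 (SE), adjusted p = 0.026). Ccnb2, a mitotic cyclin gene, rose from 1925 ± 274 to 2921 ± 615 (SD, n = 5 each) (0.58, adjusted p = 0.0348). Mki67, the best known marker of dividing cells, did not pass (0.44, adjusted p = 0.111).

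**Figure D3:**
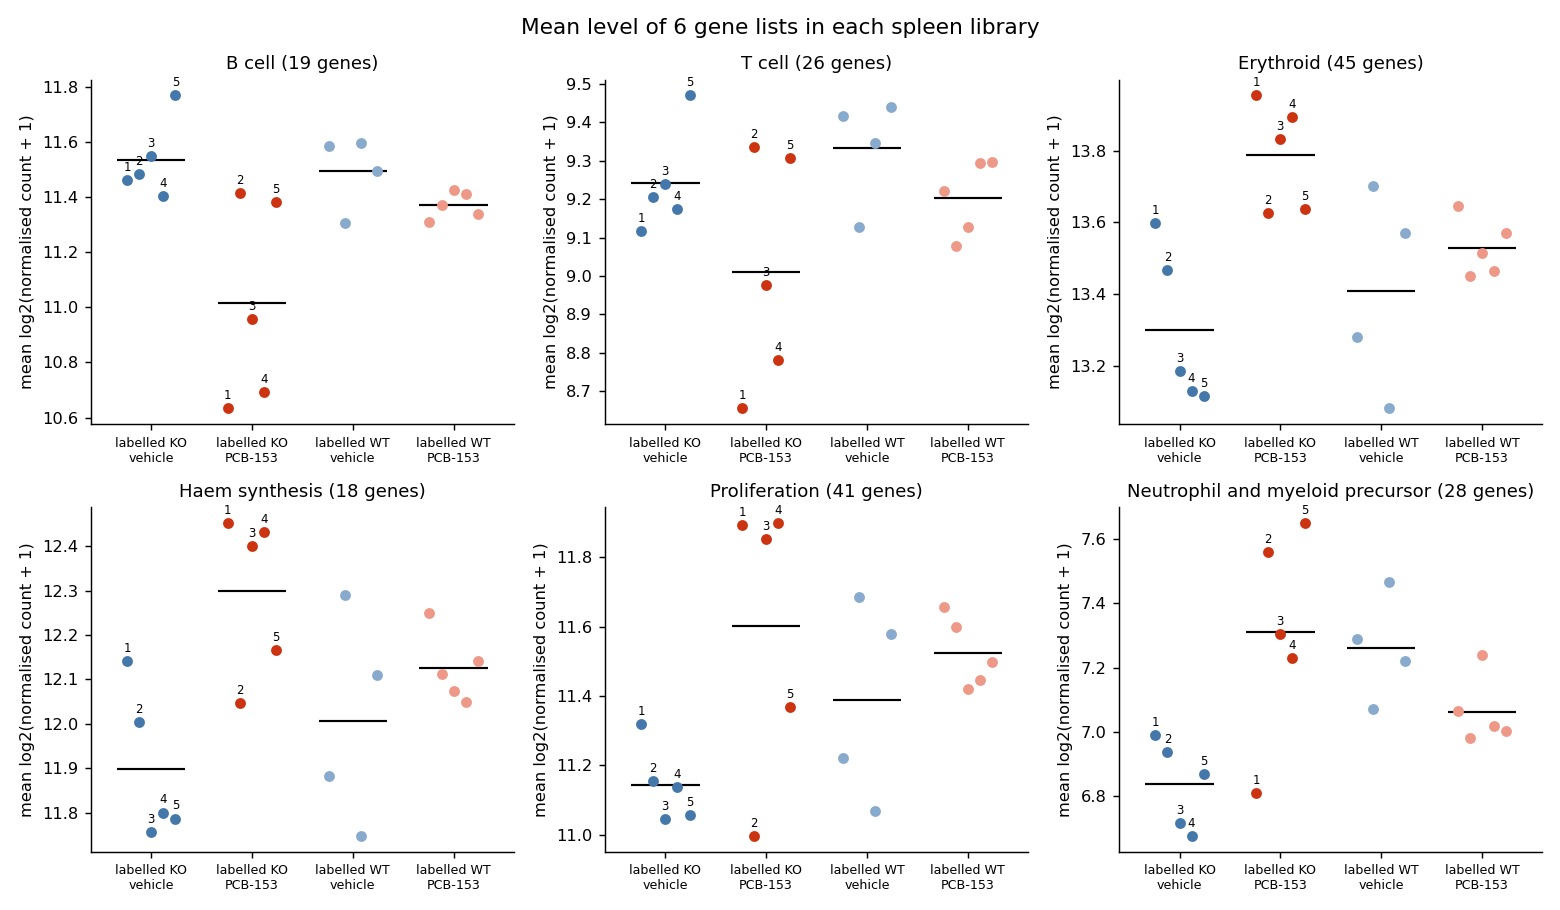
Mean log2(normalised count + 1) over the tested members of 6 gene lists in each spleen library, by group. Points are libraries, numbers are replicate numbers in the labelled knockout groups and bars are group means. PCB-153 libraries 1, 3 and 4 are lowest for B cell genes and highest for proliferation, and libraries 2 and 5 are highest for neutrophil genes.

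A number of granule genes of neutrophils and their precursors rose. Of 28 tested, 10 rose and none fell, beside 2.78% of all genes called higher, and 26 had a higher mean (median 0.54). Without PCB-153 libraries 1 and 4 the median was 0.70 and 8 were called. The mean log2 level was 6.99, 6.94, 6.72, 6.68 and 6.87 in the vehicle libraries and 6.81, 7.56, 7.30, 7.23 and 7.65 in the PCB-153 libraries. Library 1 stayed within the vehicle range and the other 4 lay above it, libraries 2 and 5 highest. These are the libraries with the lowest proliferation levels among the exposed. The vehicle libraries were themselves lower than vehicle libraries labelled wild type, with a median difference of -0.59 over the list. The group means were 6.84 after vehicle and 7.31 after PCB-153 in labelled knockout spleens, and 7.26 and 7.06 in those labelled wild type.

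S100a8 and S100a9 encode both chains of calprotectin, an abundant cytosolic protein of neutrophils. S100a9 (chromosome 3, 90692632 to 90695721) was counted at 1443, 1384, 1363, 1025 and 1205 in the vehicle libraries and 1331, 2411, 2121, 2002 and 2449 in the PCB-153 libraries. Exposed library 1 was level with the vehicle libraries and the other 4 were above them (log2 fold change 0.66 ± 0.14 (SE), adjusted p = 0.025). S100a8 rose from 736 ± 149 to 1151 ± 186 (SD, n = 5 each) (0.65, adjusted p = 0.0212). Ltf, which encodes lactoferrin of the secondary granules, was at 638, 641, 478, 354 and 536 in the vehicle libraries and 569.6, 1232, 1008, 666 and 1238 in the PCB-153 libraries, with library 1 again inside the vehicle range (log2 fold change 0.79 ± 0.20 (SE), adjusted p = 0.0302). Ngp, a secondary granule gene, rose from 777 ± 176 to 1332 ± 418 (SD, n = 5 each) (0.74, adjusted p = 0.0308), Lcn2 from 199 ± 39.4 to 352 ± 124 (SD, n = 5 each) (0.75, adjusted p = 0.0368) and Chil3, a chitinase-like gene of immature myeloid cells, by 0.64 (adjusted p = 0.0486). Chil3 shares 26.9% of its 50-base words with other genes, most with Chil4, so its reads may be divided. Without PCB-153 libraries 1 and 4 the differences were 0.87 for S100a9, 1.16 for Ltf, 1.05 for Ngp, 1.11 for Lcn2 and 1.02 for Chil3. Among 18 monocyte genes, Chil3 rose and 3 fell, beside 2.78% and 2.52% of all genes. The 3 were Lyz2, the lysozyme gene of macrophages and monocytes, which fell from 15356 ± 693 to 12017 ± 1564 (SD, n = 5 each) without overlap (-0.36, adjusted p = 0.0263), Ms4a4c (-0.44) and Ms4a6c (-0.36), with no overlap in any.

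**Figure D4:**
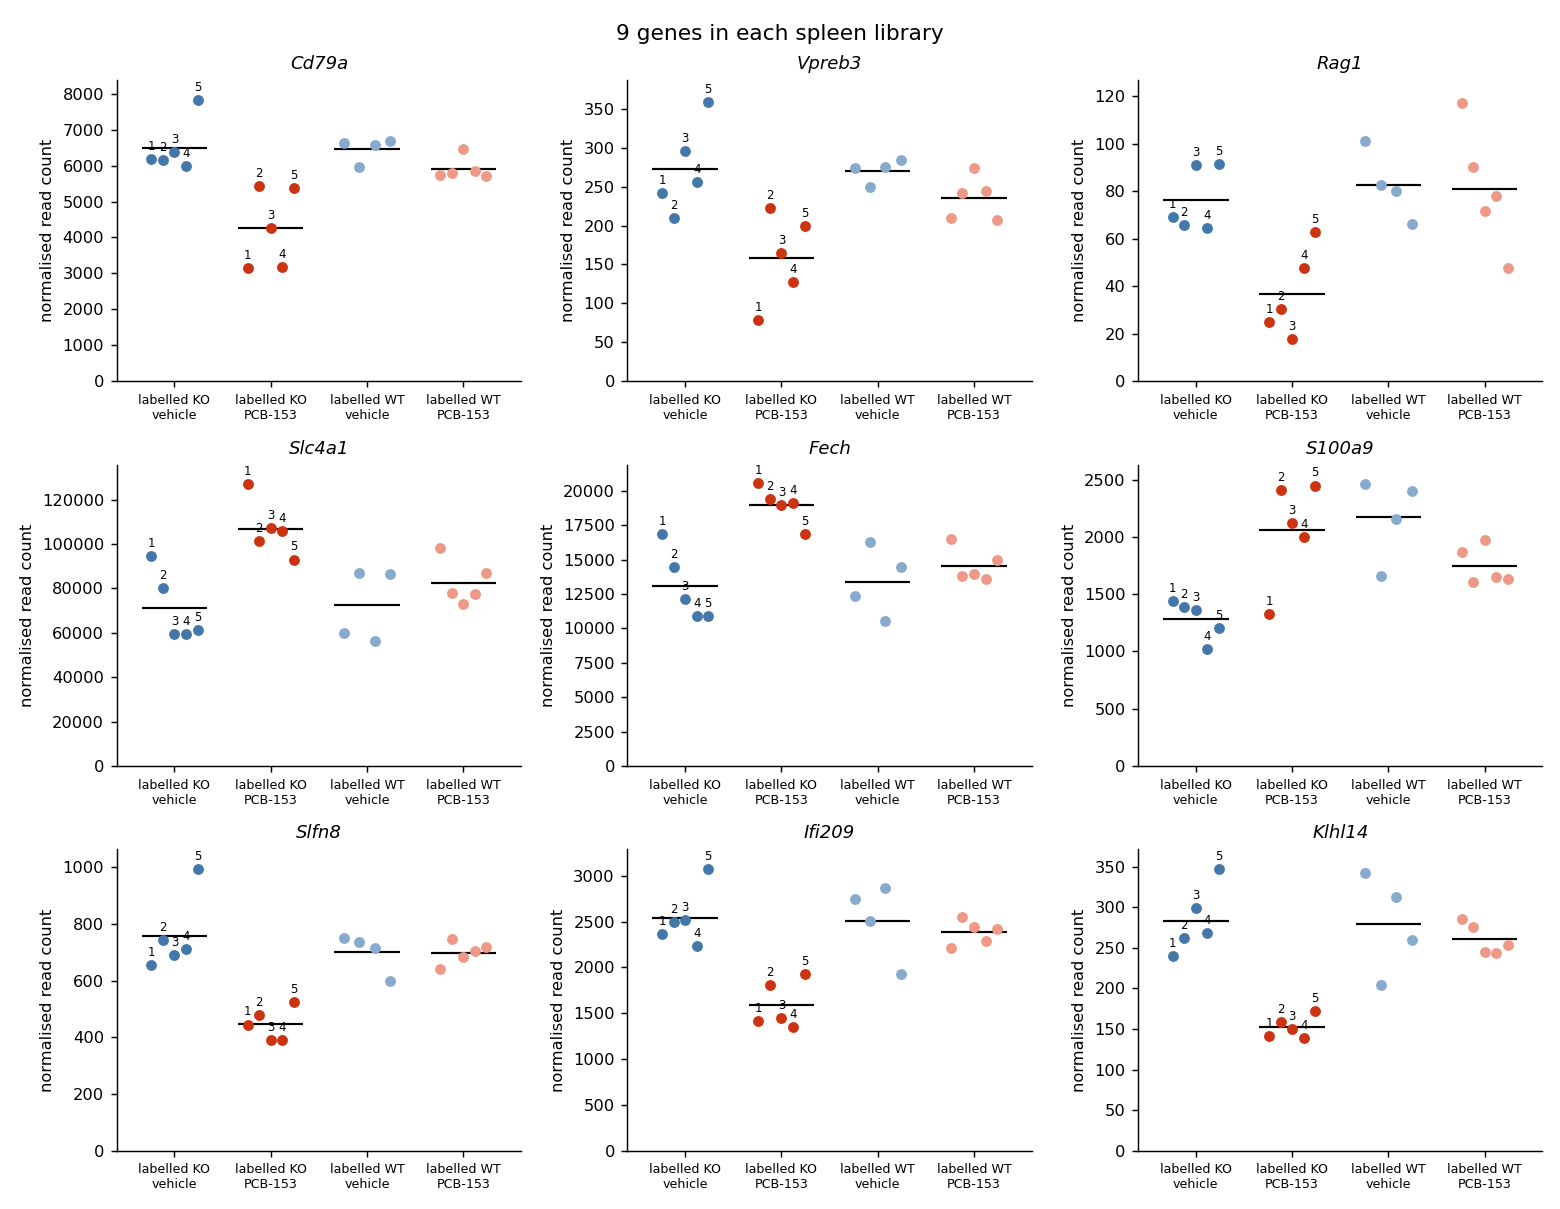
Normalised read counts of 9 genes in each spleen library, by group, on axes that start at 0. Points are libraries, numbers are replicate numbers in the labelled knockout groups and bars are group means. Slfn8, Ifi209 and Klhl14 show exposed labelled knockout libraries below all vehicle libraries of that label, and S100a9 shows 4 of 5 above them.

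Of 51 tested genes of a general interferon response list, 4 fell and 1 rose, beside 2.52% and 2.78% of all genes, with a median of -0.18. Mx1 (chromosome 16, 97447035 to 97462907), of the dynamin-like GTPase family, was at 263, 264, 258, 296 and 399 in the vehicle libraries and 173, 208, 136, 145 and 149.9 in the PCB-153 libraries. The groups did not overlap (log2 fold change -0.86 ± 0.14 (SE), adjusted p = 0.00795). Trim30a and Slfn5 fell by 0.51 and 0.50 without overlap, and the other fall was in Ddx58, the gene of the RNA sensor RIG-I. Isg20, an exonuclease gene that erythroid cells also express, rose from 3473 ± 536 to 4890.1 ± 327 (SD, n = 5 each) without overlap (0.50, adjusted p = 0.0261). Rsad2, the most abundant of the list, did not pass (0.41, adjusted p = 0.122), and neither did Ifit1 (0.15) or Isg15 (0.41).

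3 families with members among the most persistent falls were then looked up whole, after the values were seen. The counts for each family include the genes that prompted the search. PYHIN genes encode sensors and nuclear proteins with a pyrin domain and a DNA-binding HIN domain, and in the mouse they lie side by side on chromosome 1 (173350879 to 174031810). Of 12 tested, 9 fell, beside 2.52% of all genes called lower, and all 12 had a lower mean. The median was -0.54 (-0.41 without PCB-153 libraries 1 and 4, where none of the 12 was called, and -0.09 in spleens labelled wild type). Ifi209 was counted at 2359.9, 2489.9, 2517, 2235 and 3075 in the vehicle libraries and 1413, 1802, 1450.0, 1354 and 1927 in the PCB-153 libraries. No exposed library reached the lowest vehicle library (log2 fold change -0.68 ± 0.11 (SE), adjusted p = 0.00998). Mndal stood at 2535, 2759, 2818, 2441 and 3048 in the vehicle libraries and 1670.2, 2063, 1636, 1647 and 2262 in the PCB-153 libraries, also without overlap (log2 fold change -0.56 ± 0.10 (SE), adjusted p = 0.0143), and Ifi203 fell by 0.55 (adjusted p = 0.0212). Ifi204, Ifi207 and Aim2, the gene of the cytosolic DNA sensor that starts an inflammasome, did not pass, at -0.16, -0.27 and -0.26. Ifi209 shares 33.7% of its 50-base words with another gene, most with Ifi214, and Ifi211 shares 72.8%, so how reads were divided among neighbours is uncertain. Mndal shares under 20%.

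Genes Trim5, Trim12a, Trim12c, Trim30a to Trim30d, Trim34a and Trim34b encode ubiquitin ligases of the antiviral TRIM group and lie together on chromosome 7 (104244457 to 104507849). All 9 had a lower mean and 7 fell, beside 2.52% of all genes called lower. The median was -0.44 (-0.29 without PCB-153 libraries 1 and 4, where 1 was called). Trim5, Trim34a and Trim34b, all among the 7, and Trim12c share 33.0% to 56.8% of their 50-base words with other genes, most with each other, so the division of their reads is uncertain. Trim30b was at 586, 590.5, 543, 533 and 698 in the vehicle libraries and 357, 376, 306, 371 and 402 in the PCB-153 libraries. The highest exposed library was more than 100 reads below the lowest vehicle library (log2 fold change -0.70 ± 0.11 (SE), adjusted p = 0.00784). Trim30d fell from 832 ± 112 to 559 ± 74.6 (SD, n = 5 each) without overlap (-0.57, adjusted p = 0.0202), and Trim12c did not pass (-0.26, adjusted p = 0.102). Schlafen genes, which encode regulators of lymphocyte quiescence and viral RNA, lie on chromosome 11. Of 8 tested, 3 fell, namely Slfn8, Slfn5 and Slfn2, beside 2.52% of all genes called lower. A higher mean was found in 4, among them Slfn14 (0.45, adjusted p = 0.0675), a gene expressed in platelets and red cell precursors. Slfn8 (chromosome 11, 83002158 to 83020810) stood at 655, 744, 692, 711 and 992 in the vehicle libraries and 445, 479.5, 389, 389 and 523 in the PCB-153 libraries. All exposed libraries were below all vehicle libraries, and its adjusted p was the smallest of the comparison, a value shared with Klhl14 and Gm30211 (log2 fold change -0.76 ± 0.10 (SE), adjusted p = 0.00224). Its log2 fold change was -0.70 without PCB-153 libraries 1 and 4.

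**Figure D5:**
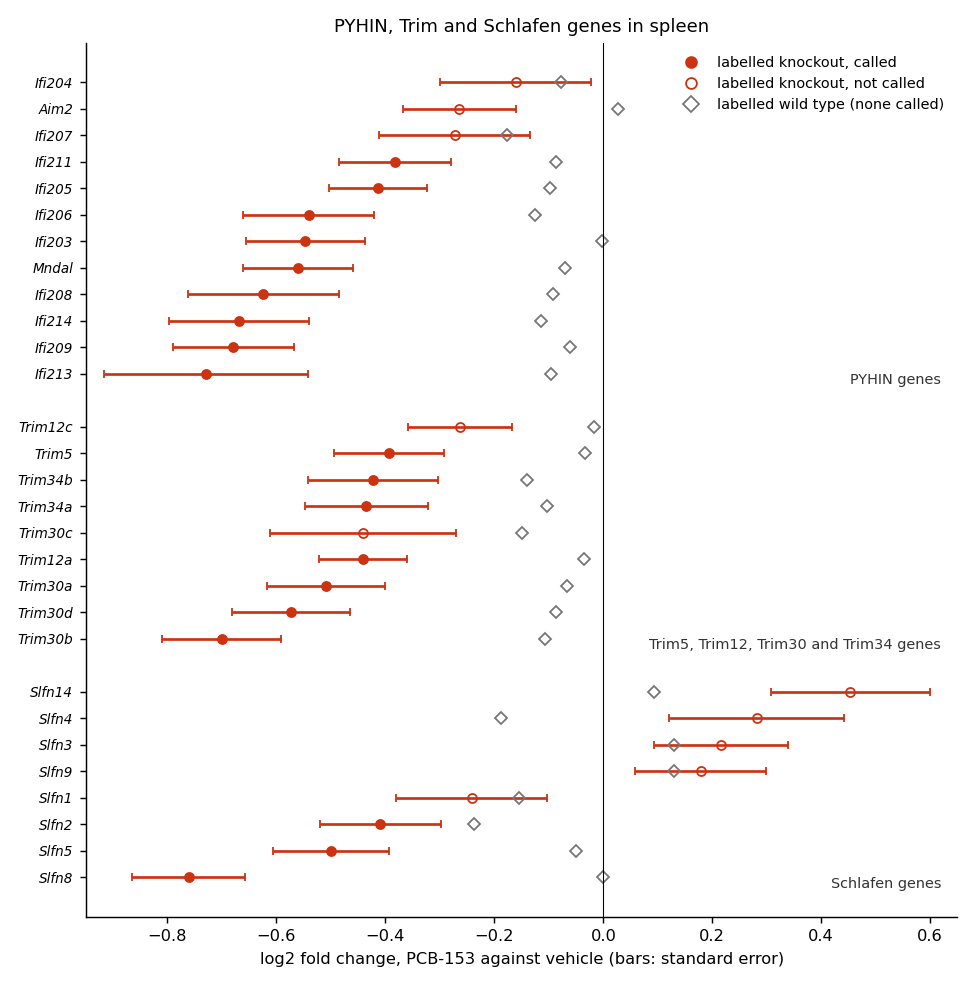
Log2 fold change of PCB-153 against vehicle for tested PYHIN genes, Trim genes of the chromosome 7 cluster and Schlafen genes. Circles with bars are labelled knockout spleens (fold change and standard error; filled where called), and open diamonds are spleens labelled wild type. All PYHIN and Trim genes are below 0 in labelled knockout spleens, while Slfn14, Slfn4, Slfn3 and Slfn9 are above it.

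Promoters of these 3 families were read for GAAA, any 2 bases and GAAA again, the core of the element that interferon regulatory factors bind. It was found on either strand in the 250 bases before a start of 16 of 28 genes with a promoter (57.1%), in 22 of 38 of the general list (57.9%) and in 3.46% of all genes. The families arose by duplication, so their promoters are not independent, and 2 genes, Trim30a and Slfn5, are in both counts. A promoter of each family is shown with the match in capitals (GRCm38.p6).
Slfn8, chr11:83020811-83021060, - strand: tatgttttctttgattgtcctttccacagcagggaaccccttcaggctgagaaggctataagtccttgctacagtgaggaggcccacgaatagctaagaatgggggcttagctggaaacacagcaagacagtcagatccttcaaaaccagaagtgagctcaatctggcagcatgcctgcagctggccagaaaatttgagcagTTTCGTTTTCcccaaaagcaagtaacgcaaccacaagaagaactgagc
Mndal, chr1:173880188-173880437, - strand: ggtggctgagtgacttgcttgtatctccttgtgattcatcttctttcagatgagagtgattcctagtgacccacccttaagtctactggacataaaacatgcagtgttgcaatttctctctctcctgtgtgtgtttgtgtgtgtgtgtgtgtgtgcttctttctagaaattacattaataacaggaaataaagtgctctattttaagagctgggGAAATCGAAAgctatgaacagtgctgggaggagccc
Trim30d, chr7:104507850-104508099, - strand: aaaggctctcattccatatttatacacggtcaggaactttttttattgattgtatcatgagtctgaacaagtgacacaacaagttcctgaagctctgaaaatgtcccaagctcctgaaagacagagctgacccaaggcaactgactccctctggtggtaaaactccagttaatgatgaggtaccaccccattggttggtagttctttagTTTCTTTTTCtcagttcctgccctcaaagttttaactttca
The matches begin 48, 36 and 41 bases before the start, on the opposite strand in Slfn8 and Trim30d. No match was found before Ifi209 or Trim30b, which fell as well. Of 51 tested genes of the general list, 4 fell and 1 rose, beside 2.52% and 2.78% of all genes. A part of this element in the falls was not tested.

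Outside these groups, the largest rises were in pancreatic genes and rested on the libraries named above. Of 26 tested, 5 rose, beside 2.78% of all genes called higher. These were the trypsin genes Try4 and Try5, Ctrb1 (chymotrypsinogen), Cpb1 (carboxypeptidase) and Amy2b, an amylase locus annotated as an unprocessed pseudogene. On the recovered reads, edgeR called 25 and DESeq2 24 of the 26 higher, of 535 and 1261 genes each called higher in total. Try4 was at 1.10, 0, 0, 0.923 and 0 in the vehicle libraries and 1149, 1.22, 1.12, 9110.2 and 37.3 in the PCB-153 libraries. It had at most 1 read per library in the vehicle group and in exposed libraries 2 and 3, and 1069, 8588 and 44 reads in libraries 1, 4 and 5. Without libraries 1, 4 and 5 the median of the list was 0.00, with 0 of its genes called, in a fit that called 0.0787% of all genes. Try4 and Try5 share 65.6% and 47.6% of their 50-base words with other genes, and Amy2b 40.2%.

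Apolipoprotein L genes also stood out. Apol11b was counted at 3449, 2773, 2338, 1552 and 1943 in the vehicle libraries and 4051, 6397, 2389, 5943 and 10599 in the PCB-153 libraries, with exposed libraries 2, 4 and 5 high and library 3 inside the vehicle range (log2 fold change 1.17 ± 0.33 (SE), adjusted p = 0.0453). The related Apol10a rose from 179 ± 65.5 to 429 ± 222 (SD, n = 5 each) with the same libraries high (1.18, adjusted p = 0.0399). Apol8 rose as well (0.61, adjusted p = 0.0279) and Apol7c fell (-0.55, adjusted p = 0.0263). Of 13 tested genes with names of the family, looked up after the values were seen, 3 rose and 1 fell, beside 2.78% and 2.52% of all genes. The 13 include Apol7d, annotated as an antisense transcript on chromosome 1, which was not called. Btn1a1, a butyrophilin gene best known from milk fat, was at 99.0, 64.9, 76.8, 57.2 and 59.1 in the vehicle libraries and 199, 120.5, 174, 127 and 91.5 in the PCB-153 libraries, and its groups overlapped through library 5 (log2 fold change 0.96 ± 0.23 (SE), adjusted p = 0.0288). Fam83g rose from 127 ± 17.7 to 233 ± 61.9 (SD, n = 5 each) and Nrip3 from 147 ± 25.2 to 246 ± 45.4 (SD, n = 5 each), both without overlap (adjusted p = 0.0203 and 0.0302). The locus counted as Mir5134, a microRNA precursor, rose by 0.75 (adjusted p = 0.0309), and a count of this kind does not separate the microRNA from a transcript around it.

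Of the remaining large falls, Col5a3, which encodes a minor fibrillar collagen chain, was at 208, 190.1, 335, 173 and 217 in the vehicle libraries and 137, 145, 113, 93.4 and 78.8 in the PCB-153 libraries. The groups did not overlap, and the call held in 9 of the 10 fits that left out a library (log2 fold change -0.98 ± 0.16 (SE), adjusted p = 0.0124). Other collagen genes went the other way. Of 31 stromal genes, 3 rose and none fell, beside 2.78% of all genes called higher (none was called without PCB-153 libraries 1 and 4). These were Col1a1, which rose from 4532 ± 210.1 to 6223 ± 1025 (SD, n = 5 each) (0.44, adjusted p = 0.0434), Col5a1 (0.30) and Col6a2 (0.46), with overlap in each. Adamts6, a secreted metalloproteinase gene, was at 275, 266, 206, 229 and 226 in the vehicle libraries and 104, 172, 128, 119.9 and 167 in the PCB-153 libraries, with no overlap (log2 fold change -0.81 ± 0.14 (SE), adjusted p = 0.0124). Pde4c, which encodes a phosphodiesterase of cyclic AMP, stood at 74.8, 70.4, 49.5, 70.1 and 57.3 in the vehicle libraries and 45.1, 46.2, 30.2, 19.1 and 21.2 in the PCB-153 libraries, and again no exposed library reached the vehicle range (log2 fold change -1.05 ± 0.21 (SE), adjusted p = 0.0212). Ltc4s, the leukotriene C4 synthase gene, fell from 64.1 ± 10.3 to 36.9 ± 4.77 (SD, n = 5 each) without overlap (-0.78, adjusted p = 0.0203).

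Among 188 immunoglobulin variable segments, 6 fell and 1 rose, near the 2.52% called lower over all genes. The median was -0.20, with a lower mean in 147, and -0.07 without PCB-153 libraries 1 and 4. The rise was in Ighv1-11, at 16.5, 13.7, 24.3, 21.2 and 7.39 in the vehicle libraries and 48.4, 86.4, 20.1, 49.9 and 48.3 in the PCB-153 libraries, with exposed library 3 inside the vehicle range (log2 fold change 1.51 ± 0.34 (SE), adjusted p = 0.026). Of the falls, Igkv3-7 went from 69.1 ± 14.5 to 38.7 ± 8.06 (SD, n = 5 each) without overlap (-0.82, adjusted p = 0.0247), Igkv15-103 from 339 ± 108 to 193 ± 25.3 (SD, n = 5 each) (-0.77, adjusted p = 0.0269) and Ighv1-50 fell by 1.03 (adjusted p = 0.0404). Ighv1-50 and Igkv3-7 share 52.2% and 40% of their 50-base words with other segments, so reads may be divided between them.

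Genes of foreign chemical metabolism were called about as often as genes at large (5.30%). Of 26 tested receptors and targets of SXR, CAR and the aryl hydrocarbon receptor, 1 was called. It was Aldh1a1, a retinaldehyde dehydrogenase gene that erythroid cells also express, at 0.48. Cyp1b1 differed by -0.19 (adjusted p = 0.334) and Cyp1a1, with means of 13.4 and 9.07, by -0.58 (adjusted p = 0.306). Cyp2b10, the best known target of CAR, was too low to test, at 3.56 ± 3.87 and 5.74 ± 4.16 (SD, n = 5 each). The SXR target Cyp3a11 had 1.10, 0, 0, 349 and 5.54 in the vehicle libraries and 0, 0, 0, 2.12 and 0.847 in the PCB-153 libraries, and nearly all of its reads were in vehicle library 4, the library with hepatocyte genes (-1.94, adjusted p = 0.421). Of 26 antioxidant genes regulated by NRF2, 5 rose and none fell (median 0.20), beside 2.78% of all genes called higher. The median was 0.10 and none was called without PCB-153 libraries 1 and 4. Slc7a11, the cystine transporter gene, was at 1091, 995, 961, 1010.5 and 912 in the vehicle libraries and 1248, 1101, 1451, 1386 and 1207 in the PCB-153 libraries, without overlap (log2 fold change 0.36 ± 0.08 (SE), adjusted p = 0.0272). Gclm, of glutathione synthesis, rose by 0.44, the thioredoxin reductase gene Txnrd1 by 0.27 and G6pdx, of the pentose phosphate pathway, by 0.22.

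In spleens labelled wild type the same exposure gave no call by limma, with 727 genes at an unadjusted p under 0.05, none by edgeR and 3 by DESeq2 (0.00831%). The difference between labels in the response, tested as an interaction, also gave none by limma (1877 genes at an unadjusted p under 0.05, smallest adjusted p = 0.417), none by edgeR and 31 by DESeq2 (0.155%), of which 12 were on the pancreatic list. The others included the amylase genes Amy2a2, Amy2a3 and Amy2a4 and the gene Reg2, related to Reg1 of that list, which were not on it. Differences in spleens labelled wild type for the genes described were -0.13 for Cd79a, -0.07 for Rag1, 0.21 for Slc4a1, 0.14 for Fech, -0.30 for S100a9, -0.00111 for Slfn8, -0.06 for Ifi209 and -0.08 for Klhl14. Their interaction p-values adjusted over all genes were 0.417 to 0.555, so a difference in response between labels was not shown for them. By DESeq2, Slfn8 (adjusted p = 0.00438), S100a9 (adjusted p = 0.00347) and Klhl14 (adjusted p = 0.022) passed for the interaction. Without PCB-153 libraries 1 and 4, limma called 5 genes (0.0262%) for the interaction, which were the neutrophil genes Chil3 (1.35, adjusted p = 0.00519), Camp (1.34, adjusted p = 0.00501), Ngp (1.30, adjusted p = 0.0338), Lcn2 (1.38, adjusted p = 0.0125) and S100a9 (1.17, adjusted p = 0.00731). Library 1, left out there, had the lowest neutrophil list level of the exposed libraries, so leaving it out raises the difference for that list. Labelled knockout vehicle libraries were also lower over the list than those labelled wild type (median -0.59), which enters the interaction. Several lists leaned the same way, by less, in spleens labelled wild type. There, 17 of 19 B cell genes had a lower mean (median -0.13). A higher mean was found there in 40 of 45 erythroid (median 0.14), 15 of 18 haem synthesis (0.13) and all 41 proliferation genes (0.13). Of 28 neutrophil genes, 26 had a lower mean there (median -0.23). Of the 1010 called genes, 760 had the same direction in spleens labelled wild type, with a median difference of 0.07 in the called direction. The 0.47 in labelled knockout spleens comes from the libraries that chose the genes, so the medians are not on equal terms. The share with the same direction over all genes tested was not computed.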

How the data were processed

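The authors aligned and counted reads per gene. Tools listed in the submitters' processing notes are STAR 2.6.0, featureCounts, FastQC and DESeq2 (given as 3.8), with mm10 as the build and no settings. The deposited spleen values are a signal, reads divided by a size factor per library, and 100% of values came out as whole reads within 0.05 reads. The authors' deposited comparison table gives log2 fold changes and p-values. Symbols of 26 genes that had become dates were restored from that table by position and mean value (tolerance 0.0001). No strand setting or annotation is stated in the labels or file headers.

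Genes with a mean of at least 10 over the 19 spleen columns were tested with limma 3.58.1 (R 4.3.3, trend) on log2(value + 1), so fold changes are on that scale and understate those of low genes. All 4 spleen groups entered the fit, and p-values were adjusted by Benjamini-Hochberg over all genes tested. A gene is called at an adjusted p under 0.05. Alternatives included other pseudocounts, filters, quantile normalisation, a replicate block, edgeR 4.0.16 and DESeq2 1.42.0 on the recovered reads, and each library left out. The script was tested on simulated counts. The comparison, its members and the gene lists were chosen with earlier results of these data known. Genes named are the 15 largest rises and falls with a mean of at least 50 that are not predicted genes, up to 4 members of lists with 3 or more called or with extreme medians, the 2 most abundant members of lists described, up to 10 genes per direction by smallest p in the deposited table, and fixed markers, a few of which are not reported here. The remaining names were chosen after their values were seen, among them the PYHIN, Trim, Schlafen and apolipoprotein L families, members of the lists given by value, and Slc4a1, Klf1, Kel, Fcer2a and Tnfrsf13c. Positions come from GENCODE M21 (GRCm38). Shared 50-base words were counted among its transcripts. Promoters come from RefSeq (GRCm38.p6).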

Additional observations from a re-analysis of the deposited data

Results flagged for a closer look

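Mean log2 levels of 49 gene lists were screened in both labelled knockout groups for a library whose distance to its nearest neighbour took up most of the group's range (Dixon's test), and 12 of 98 screens were positive. Chance alone marks about 1 in 20.

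Vehicle library 4 was high for hepatocyte genes (8.90 against a median of 2.70), for xenobiotic receptors and targets (8.11 against 7.44) and for chemokines and homing receptors (8.77 against 8.57). Vehicle library 5 was high for marginal zone B cell genes (10.13), for class I antigen presentation (11.66) and, at a low level, for pancreatic genes (2.11). Vehicle library 2 was low for mesothelial genes (4.57 against a median of 5.50), and vehicle library 3 was high for mitochondrially encoded genes (14.31 against 14.22).

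PCB-153 library 5 was high for genes of eosinophils, basophils and mast cells (6.56 against 6.01), low for adipocyte genes (4.99 against 8.30) and low for genes of thyroid hormone action (7.31 against 7.77). PCB-153 library 4, which also held the most pancreatic RNA, was high for hepatocyte genes (3.50 against 2.40).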

How the results depend on the processing

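Each of the 1010 called genes kept its direction when any of the 10 labelled knockout libraries was left out. As the genes were called on those libraries, this is no separate support. The number called ranged from 10 to 3704 (0 to 2054 higher, 10 to 1650 lower) over all 19 libraries left out in turn. It was 232 with no filter on low values (91 higher, 141 lower), 184 with only the 2 groups compared in the fit (78 higher, 106 lower) and 2026 by DESeq2 (1261 higher, 765 lower). Pseudocounts of 0.5 and 5, a minimum mean of 50, quantile normalisation and edgeR gave 860 to 1166. With a replicate block 813 genes were called (402 higher, 411 lower). Deviations of same-numbered libraries correlated between -0.02 and 0.17, above 0.1 in 3 of 5 pairs, and 3 of the 5 vehicle libraries correlated best with their own number. As this did not hold for every pair, the numbers were not taken to pair the samples. In alternatives chosen after the data were seen, 23 genes were called without PCB-153 libraries 1 and 4 (10 higher, 13 lower), 15 without libraries 1, 4 and 5 (6 higher, 9 lower) and 17 without libraries 1 and 4 and vehicle library 4 (10 higher, 7 lower). In spleens labelled wild type, 0 genes were called with each library left out and 3 by DESeq2. For the interaction, the range with each library left out was 0 to 2, DESeq2 called 31, and 5 and 6 were called without PCB-153 libraries 1 and 4, and without these and vehicle library 4. The difference in Nr1i2, -0.09, turned to 0.0104, 0.0568 and 0.00480 without PCB-153 libraries 1 and 4, without these and vehicle library 4, and without libraries 1, 4 and 5. That in Hmox1, 0.12, was -0.00658 under quantile normalisation and ranged from -0.0456 to 0.23 with single libraries left out. The cause of these shifts was not tested. With 5 libraries a group, the median standard error of 0.12 on the log2 scale limits what can be called.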

Other observations

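Lists of basic cell functions were called no more often than genes at large, of which 2.78% were called higher. Of 85 nuclear genes of oxidative phosphorylation, 82 had a higher mean in exposed labelled knockout spleens (median 0.15) and 2 were called. Of 65 histone genes, 54 had a higher mean and 1 was called. Of 89 cytosolic ribosomal protein genes none was called (median 0.05). Under quantile normalisation that median turned to -0.09 with 4 genes called, so no direction is read for them.

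The predicted genes among the 10 that were called with every labelled knockout library left out in turn include Gm32220, a processed pseudogene on chromosome 12 (52079014 to 52079311) that shares 47.0% of its 50-base words with other genes, most with Cd79a. Gm30211, a non-coding gene on chromosome 6 (70719074 to 70740554), fell by 0.77 on the log2 scale. Of the 1010 called genes, 173 were predicted genes.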
